A study of Mus musculus with 2 samples.

Results

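Mouse calf muscle was examined for 9 microRNA loci known for their abundance in neurons: Mir128-1, Mir128-2, Mir132, Mir212, Mir138-1, Mir138-2, Mir9-1, Mir9-2 and Mir9-3. They were chosen by gene name in GENCODE M21, and all 9 were found among the 2202 microRNA genes of the count files. The tissue was gastrocnemius from adult male mice, strain 5xFAD/CAST, aged 8 to 10 months. 5xFAD is a transgenic model of brain amyloid deposition, and CAST is an inbred strain of wild origin. Whether the sampled animals carried the transgene is not in the labels. There was 1 group with 2 libraries of RNA below 30 bases, numbered as biological replicates 1 and 2. They are separate tissue samples under 1 donor record, so the spread between them may be technical in part, and no contrast between conditions was possible.

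A microRNA is cut from a hairpin whose 2 arms can each yield a mature strand, and the seed, bases 2 to 8 of that strand, pairs with target transcripts. miR-9 and miR-124 are classic microRNAs of neurons and their progenitors. miR-128 is abundant in adult neurons and dampens excitability in mice, miR-132 and miR-212 come from 1 activity-induced cluster under the transcription factor CREB, and miR-138 limits dendritic spine growth in rat neurons. Muscle is supplied by motor axons wrapped in Schwann cells, while the cell bodies of the motor neurons lie in the spinal cord.

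The sequences bear on which of these loci the counts could resolve, because in the layout of these files a read that aligned to several places was counted in no gene. All 9 loci had mature sequences in RefSeq (GRCm38.p6), and the seed is in capitals in each. The miR-128 arms are shown because the 3p arm is common to both Mir128 hairpins and each 5p arm is found in 1 hairpin.
mmu-miR-128-3p: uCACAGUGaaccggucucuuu
mmu-miR-128-1-5p: cGGGGCCGuagcacugucuga
mmu-miR-128-2-5p: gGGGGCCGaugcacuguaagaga
The 3p arms of the Mir132 and Mir212 cluster are shown because they share a seed and are still separable, with 17 of 22 bases identical.
mmu-miR-132-3p: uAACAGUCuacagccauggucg
mmu-miR-212-3p: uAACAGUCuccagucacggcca
The miR-138 loci share the 5p arm and differ in the 3p arm.
mmu-miR-138-5p: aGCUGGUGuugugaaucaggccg
mmu-miR-138-1-3p: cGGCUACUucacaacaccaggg
mmu-miR-138-2-3p: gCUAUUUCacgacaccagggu
The miR-9 loci have both arms in common.
mmu-miR-9-5p: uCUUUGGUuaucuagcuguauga
mmu-miR-9-3p: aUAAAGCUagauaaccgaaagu

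Measured against all microRNA hairpins of GENCODE M21, 2 loci, Mir132 and Mir212, have both arms to themselves. The 4 Mir128 and Mir138 loci have 1 arm of their own each, and the 3 Mir9 loci have none. The longest run common to a pair of hairpins was 23 bases for Mir128-1 and Mir128-2, 24 for the Mir138 pair, 33 for Mir9-1 and Mir9-2, and 26 for Mir9-3 with either of these. Mir132 and Mir212 share at most 10 bases. The files give counts per hairpin and do not separate the arms.

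In these libraries 1157420 and 1193393 reads lay in microRNA genes on the strand of the gene, in replicates 1 and 2, and levels are given as CPM, counts scaled to a common total of these sense reads. A read is 1 small RNA, so levels were not divided by gene length. Reads aligned to several places were 60.2% and 63.2% of all reads. Of 9 skeletal muscle marker loci, 8 were detected and together held 3.87% and 3.73% of sense reads, most of it Mir206. Reads of a mature sequence made by several loci are left out where they aligned to several places. These shares therefore do not give the total of each muscle microRNA. The most abundant microRNA gene was Mir378a, at 179759 and 159404 CPM. Of 7 neuron marker loci, which include the 3 Mir9 loci, 1 was detected and 5 had no read in either library. Of all microRNA genes, 14.6% were detected. The Mir9 and Mir124a loci among these markers share sequence within their family. Their reads could therefore stand among those aligned to several places, and the count does not show absence of the mature microRNAs.

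Of the 9 loci, 6 were measurable in muscle: both Mir128 loci, Mir132, Mir212 and both Mir138 loci, at a threshold of 2 CPM in each library. Of all 2202 microRNA genes, 14.6% passed that threshold. The 3 Mir9 loci did not pass it. The 9 loci together held 856 and 748 sense reads in replicates 1 and 2, or 0.074% (exact binomial 95% interval 0.0691 to 0.0791) and 0.0627% (0.0583 to 0.0673). Mir206, the microRNA specific to skeletal muscle, had 44.6 and 52.5 times as many reads as the 9 loci together. The shares and these ratios leave out reads of the Mir128, Mir138 and Mir9 arms that aligned to several places. They do not measure the total of these mature microRNAs in the tissue. In whole tissue, few cells with a high level and many cells with a low level cannot be told apart.

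**Figure D1:**
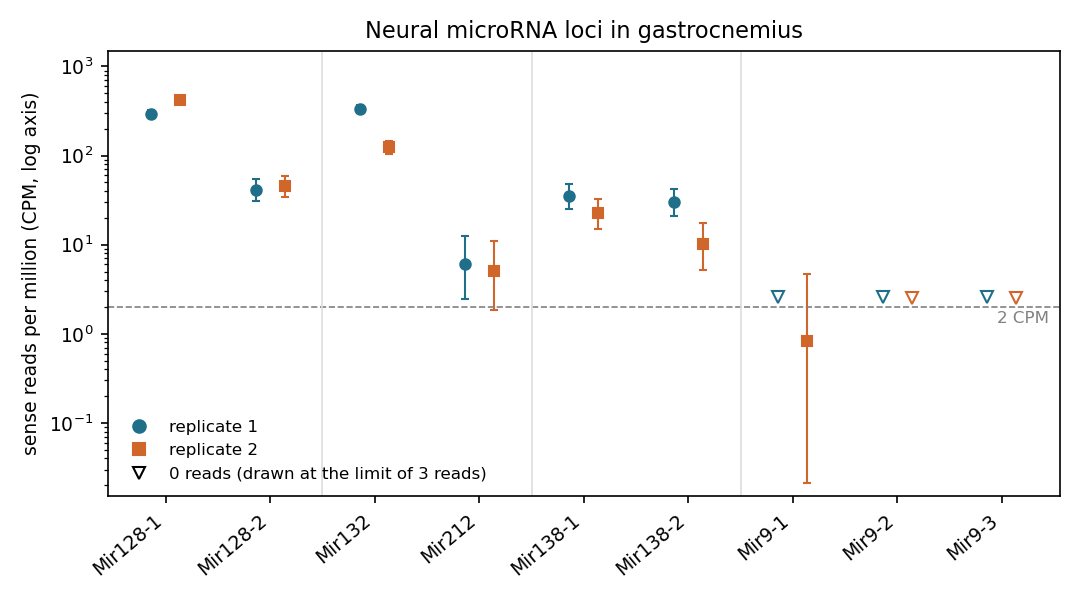
Level of sense reads (CPM, log axis) at each of the 9 loci, as circles (replicate 1) and squares (replicate 2). Bars are exact Poisson 95% intervals for counting error, open triangles mark 0 reads at the limit that 3 reads would give, and the dashed line is the threshold of 2 CPM; the 3 Mir9 loci had 1 read between them.

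Mir128-1 had the highest mean of the 9 loci and lies in an intron of R3hdm1, on the same strand (ENSMUSG00000065520.2, mm10 chr1:128202361-128202430, plus strand). It had 341 and 501 reads in replicates 1 and 2, or 295 and 420 CPM, with a mean of 357 ± 88.5 CPM (SD, n = 2). That placed it at rank 83 among all microRNA genes. Mir128-2 lies in an intron of Arpp21, a gene for a phosphoprotein regulated by cyclic AMP (ENSMUSG00000065441.2, mm10 chr9:112118636-112118711, minus strand). It had 48 and 54 reads, or 41.5 and 45.2 CPM, with a mean of 43.4 ± 2.67 CPM (SD, n = 2). Mir128-1 was the higher of the pair in both libraries, 7.10-fold in replicate 1 (95% interval 5.24 to 9.82) and 9.28-fold in replicate 2 (6.997 to 12.5). These ratios leave out every read of the shared miR-128-3p arm that aligned to both loci, so they do not measure the total miR-128 of the tissue.

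Mir132 followed Mir128-1 in mean level, and its values overlapped those of Mir128-1. Mir132 and Mir212 are 203 bases apart on the plus strand, both in an intron of 1700016P03Rik, at mm10 chr11:75173682-75173747 (ENSMUSG00000065537.2) and chr11:75173388-75173478 (ENSMUSG00000065590.1). Mir132 had 384 and 147 reads in replicates 1 and 2, or 332 and 123 CPM, with a mean of 227 ± 147 CPM (SD, n = 2). Replicate 1 was the high library here, whereas replicate 2 was the high one for Mir128-1. Mir212 had 7 and 6 reads, or 6.05 and 5.03 CPM, at rank 290. Mir132 thus had 54.9 times the reads of its cluster partner in replicate 1 (95% interval 26.4 to 137) and 24.5 times in replicate 2 (11.0 to 67.8). Neither hairpin shares a run of 20 bases with another annotated microRNA hairpin, and the rest of the genome was not compared.

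The Mir138 loci were measurable at low levels, with more reads at Mir138-1 than at Mir138-2 in both libraries. These counts leave out every read of the shared miR-138-5p arm that aligned to both loci. They do not measure the total miR-138 of the tissue. Mir138-1 overlaps an exon of the transcribed pseudogene Gm47135 (ENSMUSG00000065414.1, mm10 chr9:122682876-122682974, plus strand). It had 41 and 27 reads in replicates 1 and 2, or 35.4 and 22.6 CPM. Mir138-2 overlaps an exon of the lincRNA C78859 (ENSMUSG00000065512.3, mm10 chr8:94324311-94324381, plus strand). It had 35 and 12 reads, or 30.2 and 10.1 CPM. Both loci had fewer reads in replicate 2, and across libraries their values overlapped, since Mir138-1 in replicate 2 lay below Mir138-2 in replicate 1. The read ratio of Mir138-1 over Mir138-2 was 1.17 in replicate 1, with a 95% interval of 0.728 to 1.89 that includes equality, and 2.25 in replicate 2, where equality lies outside the interval (1.10 to 4.88).

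No Mir9 locus was detectable at this depth from reads aligned to 1 place. Mir9-1 had 0 reads in replicate 1 and 1 in replicate 2, and Mir9-2 and Mir9-3 had 0 in both. At 0 reads the upper limit was taken as 3 reads of the total, for counting error alone. That limit was 2.59 CPM for replicate 1, and 2.51 CPM for replicate 2. The 1 read of Mir9-1 in replicate 2 allows up to 4.67 CPM, the upper bound of its exact Poisson 95% interval. Mir9-1 lies in an intron of the lincRNA Gm3764 and opposite the microRNA gene Gm25641 (ENSMUSG00000106493.1, mm10 chr3:88215598-88215686). Mir9-2 lies in an exon of the lincRNA C130071C03Rik (ENSMUSG00000065424.2, mm10 chr13:83738814-83738885). Mir9-3 lies in an intron of its host transcript Mir9-3hg (ENSMUSG00000093238.1, mm10 chr7:79505264-79505353). These limits are for reads aligned to a single locus and not for mature miR-9, since a read of either miR-9 arm matches all 3 hairpins and would stand among the reads aligned to several places. How many such reads the libraries held is not known from these files.

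No opposite-strand read was counted at any of the 9 loci in either library, so the 6 measurable loci had all their counted reads on the strand of the hairpin. By mean level of counted reads the order was Mir128-1, Mir132, Mir128-2, Mir138-1, Mir138-2 and Mir212, then the Mir9 loci. Reads aligned to several places do not enter it. Mir128-1 and Mir132 overlapped in their values, as did the Mir138 pair. The steps in the order between Mir132 and Mir128-2, Mir128-2 and Mir138-1, Mir138-2 and Mir212, and Mir212 and Mir9-1 had no overlap between the values in the 2 libraries. Of the 6 detected loci, 2 stood above the median of the 321 detected genes, which was 48.5 CPM.

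**Figure D2:**
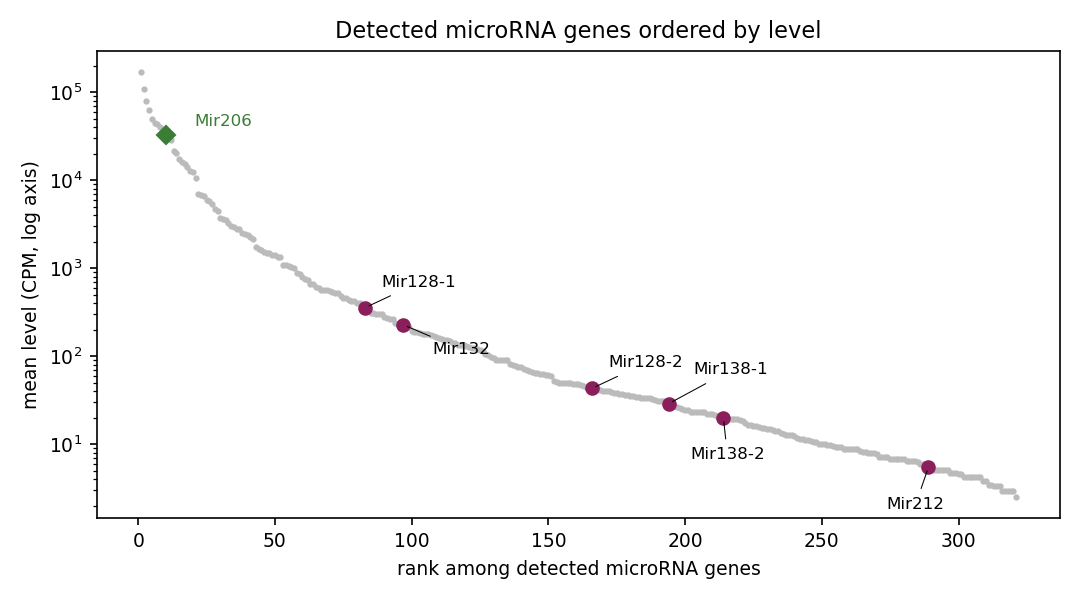
Mean level (CPM, log axis) of the 321 detected microRNA genes in order of rank, with the 6 detected neural loci in purple and Mir206 as a green diamond. Mir128-1 stands at rank 83 and Mir132 at rank 97, and the other 4 lie further down.

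The genes nearest in level over the 2 libraries, by Euclidean distance of log2(CPM + 1), were Mir20a and Mir146 for Mir128-1, at distances of 0.236 and 0.365. Mir664 and Mirlet7a-1 were nearest to Mir132, at 0.16 and 0.222. Mir467e and Mir542 were nearest to Mir128-2, Mir31 and Mir421 to Mir138-1, and Gm23935 and Mir34c to Mir138-2, all within 0.243. This nearness rests on 2 libraries and describes level alone.

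Mir132 and Mir138-2 had the higher level in replicate 1 and Mir128-1 in replicate 2. Counts were compared with a two-sided exact binomial test against TMM-scaled library sizes, adjusted by Benjamini-Hochberg over the 321 detected genes; this compares 2 libraries and not conditions. Of the 6 neural loci tested, 3 differed, or 50%, against 37.4% of all genes tested, so the count does not set them apart. Mir132 was 2.18-fold higher in replicate 1 (95% interval 1.80 to 2.65; exact binomial adjusted p = 4.2e-16). Mir138-2 was 2.43-fold higher in replicate 1 (1.23 to 5.14; exact binomial adjusted p = 0.022), on few reads. In each direction 18.7% of all genes passed. With edgeR's exact test, run with dispersion 0.01, Mir138-2 did not pass (adjusted p = 0.071).

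Mir128-1 went the other way, with a replicate 1 over replicate 2 ratio of 0.567 (0.493 to 0.652; exact binomial adjusted p = 2.7e-15). The ratio did not pass for Mir128-2 at 0.741 (0.492 to 1.11), for Mir138-1 at 1.27 (0.760 to 2.14) or for Mir212 at 0.973 (0.280 to 3.50). The median log2 ratio was 0.15 over the 6 loci and 0.013 over all genes tested. The read ratio of Mir132 over Mir128-1, which no library scaling enters, was 1.13 in replicate 1 (95% interval 0.971 to 1.31) and 0.293 in replicate 2 (0.243 to 0.353).

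Markers of muscle and of other cells also differed between the libraries, in both directions. The endothelial Mir126a held 80768 CPM in replicate 1 and 137673 CPM in replicate 2. Of the 3 leukocyte markers, Mir150 passed, at a replicate 1 over replicate 2 ratio of 1.31 (adjusted p = 1.6e-10 by the exact binomial test), while Mir142 and Mir223 did not, at 0.72 and 1.31. Of the 2 erythroid markers, Mir144 stood 8.66-fold above replicate 1 in replicate 2 (adjusted p = 3.3e-13 by the exact binomial test), with 9 and 65 reads in replicates 1 and 2, and Mir451a did not pass at a ratio of 1.28. Of the 8 muscle markers tested, 5 differed, against 37.4% of all genes tested. Mir133a-1 and Mir486 were higher in replicate 1, at ratios of 3.33 and 1.12, and Mir208b and Mir499 were higher in replicate 2, at 0.588 and 0.662. Mir206 had a ratio of 0.809 after TMM scaling, on 32948 and 32931 CPM before it. Mir1a-1, Mir1a-2 and Mir133b did not pass, and Mir133a-2 was not detected, at 5 and 0 reads. The liver marker Mir122 had 12 and 13 reads and did not pass. The part of these markers in the differences at the neural loci was not tested.

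**Figure D3:**
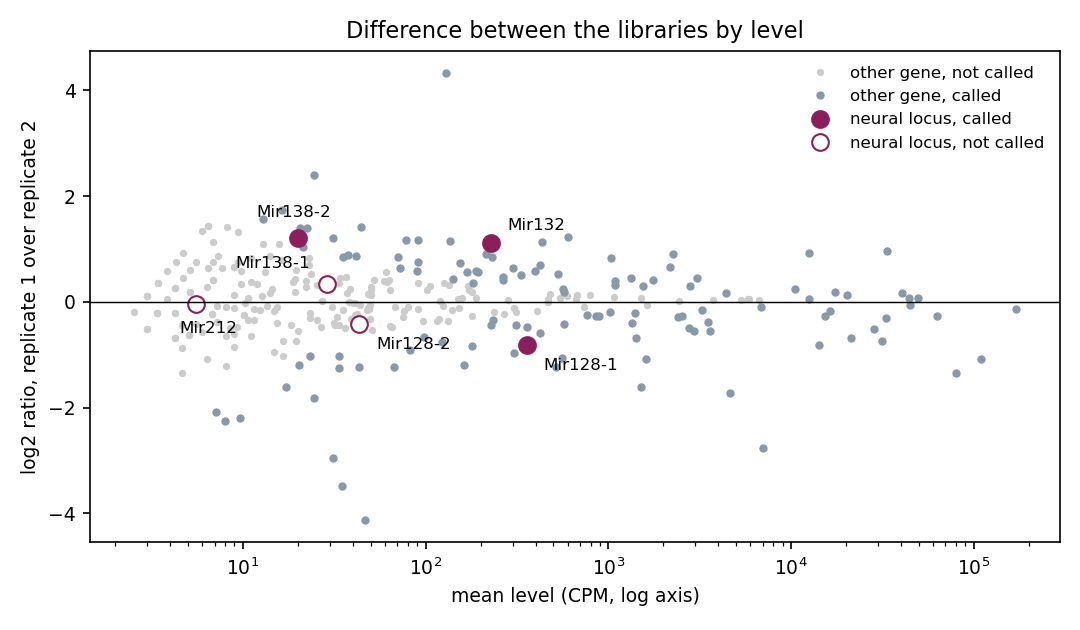
Log2 ratio of replicate 1 over replicate 2 after TMM scaling against mean level (CPM, log axis) for the 321 detected genes, with neural loci in purple, filled where the exact binomial test called them. Mir132 and Mir138-2 lie above 0 and Mir128-1 below.

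The make-up of the neural reads differed between the libraries, with Mir132 holding more of them in replicate 1 and Mir128-1 in replicate 2. The Mir128 loci held 45.4% of the reads of the 9 loci in replicate 1 and 74.2% in replicate 2. Mir132 and Mir212 held 45.7% and 20.5%, the Mir138 loci 8.88% and 5.21%, and the Mir9 loci 0% and 0.134%. Mir128-1 and Mir132 together made up 84.7% and 86.6%. These are shares of counted reads. Reads of the arms shared among the Mir128, Mir138 and Mir9 loci that aligned to several places are not among them.

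**Figure D4:**
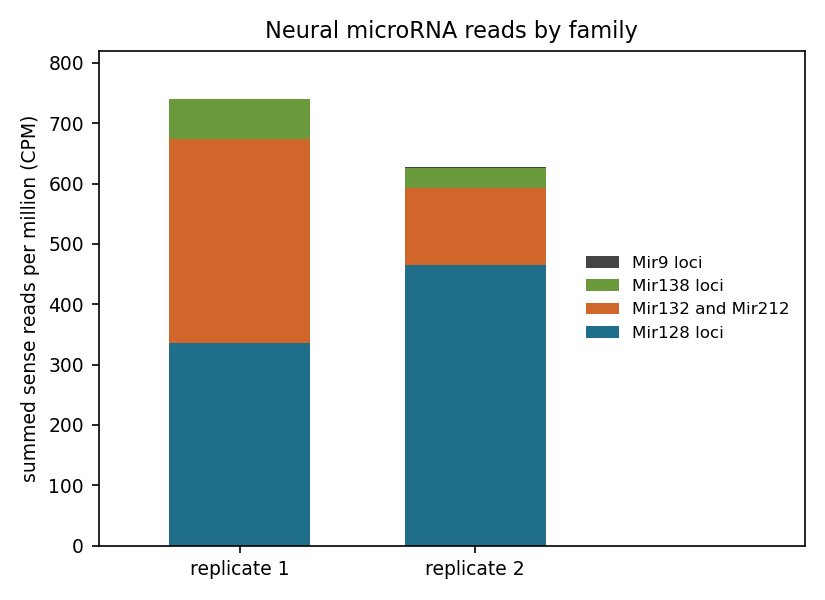
Summed level of sense reads (CPM) of the 9 loci, stacked by family, with 1 bar per library. The Mir128 loci hold 336 CPM in replicate 1 and 465 CPM in replicate 2, while Mir132 with Mir212 holds 338 and 128 CPM.

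Other microRNAs of neurons and of the glia that make myelin were read from a list of 20 loci, of which 10 were detected. Of all 2202 microRNA genes, 14.6% were detected. The list was chosen with earlier results of these data known, so its count is a description. The most abundant of the 20 loci was Mir338, in an intron of Aatk and known in myelinating glia. It had 378 and 341 reads in replicates 1 and 2, or 327 and 286 CPM. Its mean of 306 ± 28.9 CPM (SD, n = 2) lay between those of Mir128-1 and Mir132. Mir338 overlaps the microRNA gene Mir3065 on the opposite strand, so its level rests on the strand-specific column. The other glial loci, which give miR-219, had few counted reads: Mir219a-2 had 10 and 9, and Mir219a-1, with 3 and 2, was not detected. The miR-219a-5p arm lies in both hairpins, so reads of it that aligned to several places are left out. The counts at the Mir219a loci do not measure the total miR-219 of the tissue.

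Among the 17 neuron loci of that list, 8 were detected, against 14.6% of all microRNA genes. These 8 loci all had means below the median of the detected genes. They were Mir598, Mir134, Mir7-1, Mir383, Mir137, Mir129-1, Mir7b and Mir592, from 37.1 ± 8.62 CPM for Mir598 to 3.42 ± 1.28 CPM for Mir592 (SD, n = 2 each). Mir137, a microRNA of neuronal maturation, had 36 and 14 reads in replicates 1 and 2, or 31.1 and 11.7 CPM. The 3 Mir124a loci had 0 reads in both libraries, and all 3 have a stretch of at least 20 bases in common with each other, as the Mir9 loci do. Mir153 also had 0 reads in both, although its hairpin shares no such run. The loci of miR-218, a microRNA of motor neurons, were not detected: Mir218-1 had 2 reads in each library, and Mir218-2 had 2 in replicate 1 and 0 in replicate 2. The miR-218-5p arm lies in both hairpins, so a read of it would also stand among the reads aligned to several places. Mir129-2 had 3 and 2 reads, and Mir7-2 and Mir488 had 2 and 0 each, and these were not detected either. The miR-129-5p arm lies in both Mir129 hairpins, and the miR-7a-5p arm in those of Mir7-1 and Mir7-2. Counts at these Mir129 and Mir7 loci, detected or not, leave out reads of the shared arms that aligned to several places. The Mir488 hairpin shares no run of 20 bases.

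Of the 10 detected loci of the list, 1 differed between the libraries by the exact binomial test, against 37.4% of all genes tested. It was Mir137, at a replicate 1 over replicate 2 ratio of 2.14 (95% interval 1.13 to 4.30; exact binomial adjusted p = 0.04). Mir137 was higher in replicate 1, as Mir132 was. Mir137 did not pass with edgeR's exact test, run with dispersion 0.01 (adjusted p = 0.16), nor without a filter (exact binomial adjusted p = 0.1), nor with the column of both strands (exact binomial adjusted p = 0.064). The other 9 did not pass, and the median log2 ratio of the 10 was 0.17. Apart from Mir338, the 10 loci had 3 to 50 reads in a library, where the test can call only large ratios. The count therefore does not set the list apart from all genes tested.

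Detection is also given by sequence sharing, as a description. Of the 20 loci of the list, 7 of the 9 without a shared run of 20 bases were detected and 3 of the 11 with one. Over all microRNA genes, 22.2% of 1115 loci without such a run were detected and 6.81% of 1087 loci with one. Of the 9 neural loci, both without a shared run were detected and 4 of the 7 with one. Loci with and without a shared run are different microRNAs, and the part of sharing in the absence of Mir9 counts was not tested.

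**Figure D5:**
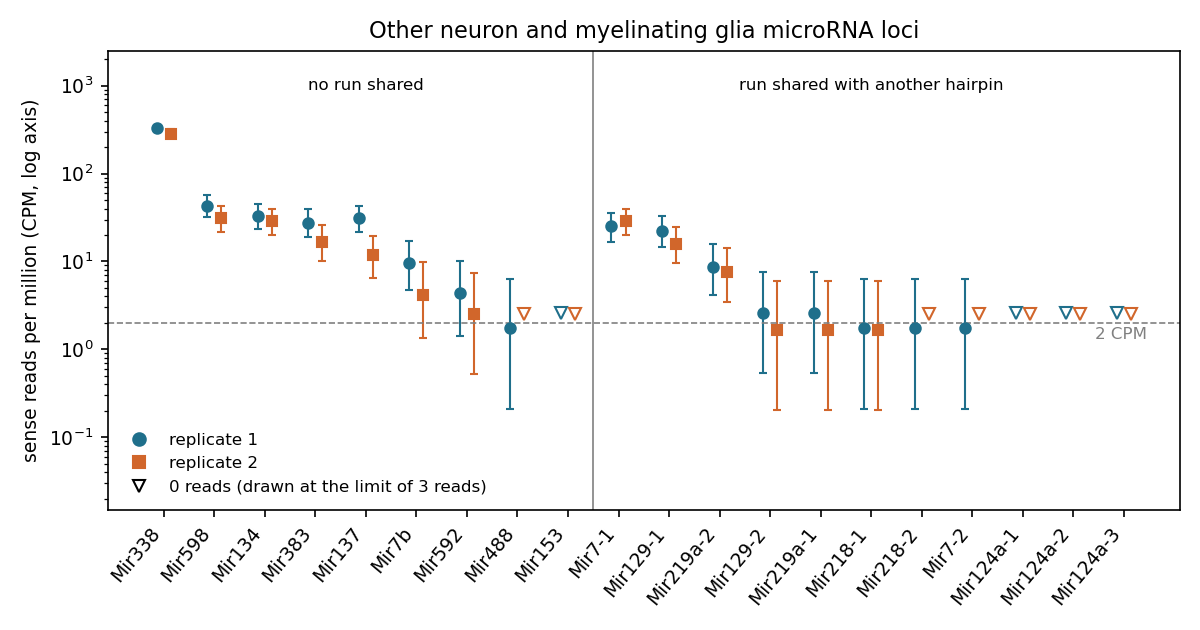
Level of sense reads (CPM, log axis) at the 20 other loci of neurons and myelinating glia, split by whether the hairpin shares a run of 20 bases with a microRNA hairpin elsewhere, as circles (replicate 1) and squares (replicate 2). Bars are exact Poisson 95% intervals and open triangles mark 0 reads, drawn at the limit of 3 reads; the 3 Mir124a loci had 0 reads in both libraries.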

How the data were processed

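Each library has 1 deposited file of raw read counts for every microRNA gene. The columns, which have no header, count both strands, the sense strand and the antisense strand. The texts deposited with the files name mm10 as the assembly and M21 as the GENCODE annotation. The aligner is not given in the sources used here. Each file opens with 4 lines of totals that name no gene. These were 81.1% and 82.0% of all reads in replicates 1 and 2 and entered neither library sizes nor tests. STAR gene counts have this layout, and they assign a read with several alignments to no gene. All 2202 identifiers were found in GENCODE M21.

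CPM were computed over sense totals, with exact Poisson or Clopper-Pearson 95% intervals, which cover counting error only, since reads with no molecular identifier may be PCR copies. TMM factors were 1.11 and 0.899 (edgeR 4.0.16, R 4.3.3); log2 ratios had a pseudocount of 1 CPM. The exact binomial test was adjusted over genes at 2 CPM or more in both libraries and called at 0.05. It was first run on simulated Poisson counts. These hold no spread beyond counting error, so that check cannot show calls due to other spread. Mature sequences came from RefSeq, and runs of 20 bases were compared between hairpins on both strands. Python 3.11.15 with pandas 2.3.3 and scipy 1.17.1 was used. No genome sequence was used.

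Named were all 9 loci, the listed neuron, glia and muscle loci, the markers of other cells, the most abundant gene, and for each member at 10 CPM or more the 2 genes nearest in level. The members and lists were chosen with earlier results of these data known. Alternatives were other columns, scalings, filters, thresholds, denominators and tests, and each library alone.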

Additional observations from a re-analysis of the deposited data

How the results depend on the processing

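The count of 6 detected neural loci was the same with the column of both strands, a threshold of 5 CPM, 1 read or more in both libraries, either library alone and a denominator without the most abundant gene, and was 5 at a threshold of 10 CPM, where Mir212 did not pass. The 10 detected loci of the neuron and glia list ranged from 7 to 13 over these settings except the changed denominator, which was not run for them. The share of the 9 loci in sense reads, 0.0683% on average, was 0.0971% with the column of both strands, 0.0824% without the most abundant gene, 0.0126% of all reads, and 0.0627% to 0.074% in single libraries. In the column of both strands, hairpins that overlap on opposite strands lose their reads, so its total is smaller. The 120 genes that differed between libraries were 53 with edgeR's exact test, run with dispersion 0.01, and 110 to 149 in the other settings. The neural loci among them numbered 3 in these settings and 2 with edgeR's, where Mir138-2 did not pass. Mir212, which passed in no setting, had a log2 ratio of -0.034 with TMM and 0.23 with total counts, which moved the median of all genes by 0.29. The settings for Mir137 were chosen after seeing the data. Depth limits the precision for Mir212, at 7 and 6 reads. The test between libraries could not be run with a library left out.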
